A study of Mus musculus with 6 samples.

Results

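The 3 libraries labelled wild type were read here as a description of the mouse hypothalamus at baseline, taken as all libraries of that genotype among the 6 of the series. The other 3 come from mice in which SRC-1, the nuclear receptor coactivator encoded by Ncoa1, was deleted, and they enter no result except 1 check of the label. Every library was made from total RNA of the dissected hypothalamus. The labels give the genotype as Wild-type and the tissue as brain, hypothalamus. The sources used here give no strain, age, treatment, hour of dissection or pooling of animals. The labels also do not state that replicates are separate animals, so the spread between libraries may in part be technical.

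The hypothalamus is a small region at the base of the brain that sets feeding, temperature, sleep, fluid balance, stress hormones and reproduction. It does so through many small groups of neurons, each marked by 1 or more neuropeptides, and a dissection takes them together with glia, vessels and the tissue that touches them. Peptides are made as precursors, cut and stored in dense-core vesicles, and read by G protein-coupled receptors, while glutamate and GABA carry fast transmission. In bulk RNA, fewer cells of a type and less RNA per cell cannot be told apart, and this holds for every level below.

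Library totals were 40371284, 36613507 and 42191925 counts of read pairs for replicates 1, 2 and 3. At least 1 TPM (a level per exon base, scaled to the same sum in each library) was reached in every library by 16340 of 50559 genes, and 16280 genes had 0 counts in all of them. A count of 0 allows up to 3 counts, or between 0.0711 and 0.0819 CPM (counts over the TMM-scaled library total), which covers counting error only. Across genes, Pearson's r of log2(CPM + 1) between libraries was 0.9882 to 0.9903, and a chi-square per degree of freedom of 14.4 to 16.9 means that no pair agreed within sampling noise. Ncoa1 had 5180, 4630 and 5406 counts here, against 1478 to 1766 in the libraries labelled as lacking it. The Y-linked gene Uty had 979 to 1154 counts and Xist, the RNA of the silenced X, 6 to 10, in all 3 libraries.

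The most abundant transcripts were those of respiration. Of the 20 genes with the highest mean TPM, 9 lie in the mitochondrial genome, led by COX1 at 28518 ± 1926 TPM (SD, n = 3), a subunit of cytochrome c oxidase, CYTB at 20510 ± 1365 and ND1 at 15663 ± 886. Mitochondrial genes took 4.23, 4.50 and 4.51% of the counts but 11.3, 11.9 and 11.8% of the TPM, since they are short. Pairs with several locations were not counted, so any of these genes with near-identical copies elsewhere may be undercounted. The first nuclear gene was Eef1a1, a translation elongation factor, at 4773 ± 442 TPM. It was followed by Cst3, a secreted protease inhibitor, at 3229 ± 101 TPM. The chaperones Hspa8 (2408 ± 29.9 TPM) and Hsp90ab1 (2118 ± 51.9 TPM) and the glycolytic enzyme Gapdh (2256 ± 152 TPM) stood in the same group. Sparc at 2495 ± 163 TPM and its relative Sparcl1 at 2242 ± 86.1 TPM, both secreted matricellular proteins, were there too. Cpe, the carboxypeptidase that trims peptide precursors, was the fourth nuclear gene at 2604 ± 335 TPM, ahead of every ribosomal protein gene.

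By counts alone the order differed. Among the 20 genes with the highest CPM, 12 were shared with the 20 highest by TPM, and the median exon length was 2406.5 bases against 1461.5. The long noncoding RNAs Meg3 (3510 CPM) and Snhg11 (2720 CPM) entered the first 10 by CPM, beside Eef1a1 at 2721 CPM. Exons shared with other genes cover 34.4% of Meg3. Ptgds, the prostaglandin D2 synthase of brain coverings and glia, ranked among the first by its mean of 3033 TPM, but its SD was 2469 TPM. It measured 2681 TPM in replicate 1, 5658 in replicate 2 and 758.9 in replicate 3. It was thus the exception in a group in which the other 19 genes varied by 1.40-fold at most between the highest and lowest library.

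A few neuropeptide precursors were abundant and most were low. The median over the whole list, members under 1 TPM included, was 6.02 TPM. Genes of at least 1 TPM in every library had a median of 17.2 TPM. That set leaves out the low genes, so these medians are not alike. Of 61 precursor genes in the table, 44 reached 1 TPM in every library, and the first 8 held 73.3% of their summed TPM. Pmch, the precursor of melanin-concentrating hormone of the lateral hypothalamus, came first with 628, 1181 and 1076 TPM (962 ± 294, n = 3). It lies at chr10:87926934-87928236 of mm39, and 58% of its exon bases are shared with another gene, over which no read was counted. By its unshared bases it would stand at 2212 TPM. Hcrt, the precursor of the orexins, which keep animals awake, had 365, 796 and 798 TPM. Both lateral hypothalamic peptides were lowest in replicate 1 and close to each other in replicates 2 and 3.

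Avp, the precursor of vasopressin, measured 785, 514 and 124 TPM and took the third place on average. Replicate 3 was lowest, and no other peptide among the first 8 had as wide a spread. Sst (somatostatin, which restrains growth hormone release) had 580, 343 and 396 TPM, and Trh (thyrotropin-releasing hormone) had 429, 225 and 157 TPM. Both were highest in replicate 1, as Avp was. Penk (proenkephalin) measured 203, 205 and 207 TPM, nearly the same in every library. Cartpt, which restrains feeding, measured 293, 349 and 387 TPM, and Tac1, the substance P precursor, 168, 199 and 205 TPM.

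Gal (galanin) took the ninth place at 164 ± 25.3 TPM, just ahead of Pomc. The peptides of the arcuate feeding circuit stood at unequal levels. Pomc, whose product alpha-MSH reduces feeding, had 186, 123 and 173 TPM. Npy, which promotes feeding, had 78.8, 104 and 245 TPM, and Agrp, made by the same neurons as Npy, had 13.8, 20.2 and 45.4 TPM. The library order was the same for Npy and Agrp, with replicate 3 highest and replicate 1 lowest, and it differed from that of Pomc. Lower still were Ghrh at 9.50 ± 3.24 TPM, Gnrh1 at 7.37 ± 4.49 TPM and Crh at 6.02 ± 2.49 TPM, the releasing hormones of growth hormone, of the gonadotropins and of ACTH. Iapp had 0 counts in all libraries.

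The order of neighbouring peptides was not firm. In none of the 7 neighbouring pairs among the first 8 did every library of the higher gene exceed every library of the lower one. Oxt, the oxytocin precursor, showed how much its place depends on gene length. By CPM it stood at 191, 73.2 and 39.7, a mean of 101, above Avp at 151, 96.8 and 25.0 CPM with a mean of 91.0. By TPM it took the twelfth place at 141 ± 111, because the table gives Oxt 2274 exon bases and Avp 611. If the Oxt transcript is shorter than those 2274 bases, its TPM is too low, so its place below Avp is uncertain. Both genes are neighbours on chromosome 2, at chr2:130416432-130418974 and chr2:130422540-130424508 of mm39, and both were highest in replicate 1 and lowest in replicate 3.

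**Figure D1:**
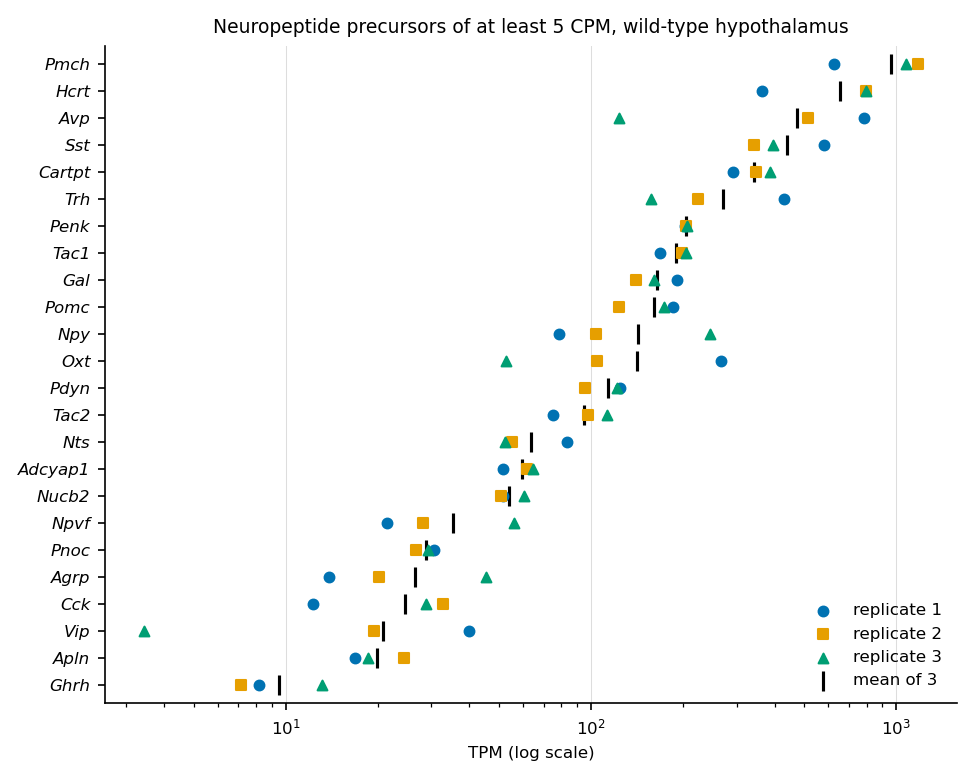
TPM (log axis) of the 24 neuropeptide precursors with a mean of at least 5 CPM, ordered by mean TPM; coloured symbols are the 3 wild-type libraries and the bar is their mean. Penk at 203 to 207 TPM is tight, while Avp (124 to 785), Oxt (52.8 to 266) and Vip (3.43 to 39.7) spread widely.

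The machinery that makes and stores peptides was abundant. All 17 genes of prohormone processing and the granins reached 1 TPM in each library. None differed 2-fold between libraries, beside 1.46% of all genes of at least 5 CPM. Their median ratio of the highest to the lowest library was 1.19, beside 1.14 over all those genes. Cpe was followed by Scg2 at 1358, 1444 and 1716 TPM, the precursor of secretoneurin and a cargo of dense-core vesicles. Chga and Chgb, the chromogranins that help form those vesicles, stood at 532 ± 15.8 and 459 ± 23.6 TPM (SD, n = 3). Pcsk1n, the precursor of a prohormone convertase inhibitor, had 468 ± 38.9 TPM, and Pam, which amidates peptide ends, 257 ± 27.2 TPM. In 5 of 7 neighbouring pairs of the first 8 the order held in every library.

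The first peptide receptors stood below the first precursors, while the list medians were near each other, at 5.88 TPM for receptors and 6.02 TPM for precursors. The first was Ntsr2, a neurotensin receptor, at 256, 283 and 274 TPM, and it is also on the astrocyte list. Adcyap1r1, the PACAP receptor, had 242, 204 and 213 TPM, below Ntsr2 in every library. Then came Oprl1, the nociceptin receptor, at 87.5 ± 8.71 TPM, and Npr2, the receptor of C-type natriuretic peptide, at 44.9 ± 4.39 TPM (SD, n = 3). Calcr (calcitonin and amylin), Sstr1 (somatostatin), Npy2r (peptide YY and neuropeptide Y) and Oprk1 (dynorphin) lay between 24.8 and 39.2 TPM on average. Some other receptors of abundant peptides were lower, and these were chosen after their values were seen. Mchr1, for melanin-concentrating hormone, had 17.3 ± 1.06 TPM, and Hcrtr2 and Hcrtr1, for the orexins, 8.27 ± 1.10 and 8.05 ± 2.08 TPM. Oxtr had 6.75 ± 1.12 TPM and Avpr1a 6.07 ± 0.675 TPM. Sstr1, the receptor of the abundant peptide somatostatin, stood in the higher group. Of 70 peptide receptor genes, 56 reached 1 TPM in each library. Mc3r and Mc4r, the melanocortin receptors, averaged 13.0 ± 3.04 and 4.32 ± 1.77 TPM.

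Among receptors for metabolic hormones and growth factors, Ntrk2, the BDNF receptor, came first at 127, 116 and 124 TPM. Fgfr1 (fibroblast growth factors) followed at 81.0 ± 8.83 TPM and Il6st, the shared subunit gp130, at 65.7 ± 9.62 TPM. The adiponectin receptors Adipor2 and Adipor1 had near-equal means of 60.98 ± 8.64 and 60.01 ± 3.83 TPM. Insr, the insulin receptor, stood at 26.6 ± 1.43 TPM. Lepr, the leptin receptor, had 3.23, 4.83 and 5.31 TPM, with replicate 1 lowest. None of the 15 members with at least 5 CPM differed 2-fold, beside 1.46% of all genes at that level.

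Nuclear receptors, the class that SRC-1 assists, were led by Thra, the thyroid hormone receptor alpha, at 281, 268 and 274 TPM. Nr1d1, a clock repressor that overlaps it on the opposite strand, was lower in every library at 96.0, 92.0 and 76.4 TPM. Exons shared between genes cover 4.13% of Thra and 8.83% of Nr1d1, and the counting used no strand. Nr1d2 and the retinoid X receptors Rxrb and Rxra had 60.2 ± 4.65, 54.5 ± 1.62 and 39.2 ± 3.35 TPM (SD, n = 3). Nr3c1, the glucocorticoid receptor, had 36.8 ± 3.30 TPM, above Nr3c2, the mineralocorticoid receptor, at 10.6 ± 1.22 TPM in every library. The estrogen receptor Esr1 stood at 6.72 ± 2.13 TPM, the progesterone receptor Pgr at 4.29 ± 0.597 TPM and Esr2, the other estrogen receptor, at 1.32 ± 0.268 TPM. Esr1 was highest in replicate 1, with 9.13 TPM against 5.08 and 5.94.

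The leading receptors for GABA and glutamate stood above those for peptides. The GABA-B subunit Gabbr1 led with 439, 444 and 452 TPM. The glycine receptor subunit Glrb had 179 ± 8.17 TPM and the other GABA-B subunit, Gabbr2, 152 ± 1.55 TPM, below Glrb in every library. The GABA-A subunits Gabra3 and Gabra2 had 129 ± 14.0 and 95.9 ± 11.1 TPM. Gabra6, the subunit of cerebellar granule cells, had 0 counts in all libraries. Of glutamate receptors, the AMPA subunit Gria1 came first at 329, 268 and 292 TPM, then the NMDA subunit Grin1 at 176, 157 and 177 TPM and Gria2 at 109, 106 and 100 TPM. Exons shared with another gene cover 29.4% of Grin1. Among receptors for amines and acetylcholine, the histamine autoreceptor Hrh3 led with 76.6, 76.6 and 80.3 TPM. The nicotinic subunit Chrnb2 followed at 66.8 ± 3.54 TPM and the serotonin receptor Htr2c at 65.1 ± 8.001 TPM.

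Transporters that clear GABA and glutamate into astrocytes topped the transmitter transporters. Slc6a11 (GAT-3) had 828, 809 and 880 TPM, and it exceeded every library of Slc1a3 (GLAST) at 374 ± 22.5 TPM and of Slc1a2 (GLT-1) at 329 ± 5.77 TPM. Slc17a6, the vesicular glutamate transporter of subcortical neurons, measured 160, 220 and 238 TPM, with replicate 1 lowest. Slc32a1, which loads GABA and glycine into vesicles, measured 131, 99.4 and 94.0 TPM, with replicate 1 highest. Slc17a7, the vesicular glutamate transporter of cortex and hippocampus, had 0.8004, 5.16 and 0.528 TPM. The serotonin and noradrenaline transporters Slc6a4 and Slc6a2 averaged 0.0969 and 0.0467 TPM, and the neurons that express them lie in the brainstem.

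Among nutrient and ion transporters, the sodium pump beta subunit Atp1b1 had 1475, 1464 and 1481 TPM, nearly the same in every library. The beta subunit Atp1b2 of glia had 589 ± 15.6 TPM (SD, n = 3). Slc25a4, which exchanges ADP and ATP across the mitochondrial membrane, had 1305 ± 23.9 TPM and was the first of all 395 solute carrier genes of the table. The glucose transporters Slc2a1 of vessels and glia and Slc2a3 of neurons had 123 ± 10.3 and 70.2 ± 2.67 TPM. None of the 39 members with at least 5 CPM differed 2-fold. Of solute carrier genes at that level, 6 of 230 (2.61%) did, beside 1.46% of all genes.

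Of the enzymes that make transmitters, Glul, the glutamine synthetase of astrocytes, came first at 1220, 1353 and 1665 TPM, and replicate 3 was highest. Gad1 and Gad2, which make GABA, measured 265, 203 and 202 TPM and 233, 158 and 150 TPM, both highest in replicate 1 like Slc32a1. Th, the first enzyme of catecholamine synthesis, had 86.5 ± 13.3 TPM. Hdc, the histamine-making enzyme of the tuberomammillary nucleus, had 53.7, 101 and 96.7 TPM, with replicate 1 lowest. Chat, Tph2 and Dbh, for acetylcholine, serotonin and noradrenaline, stood below 1 TPM on average, at 0.896, 0.592 and 0.166.

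**Figure D2:**
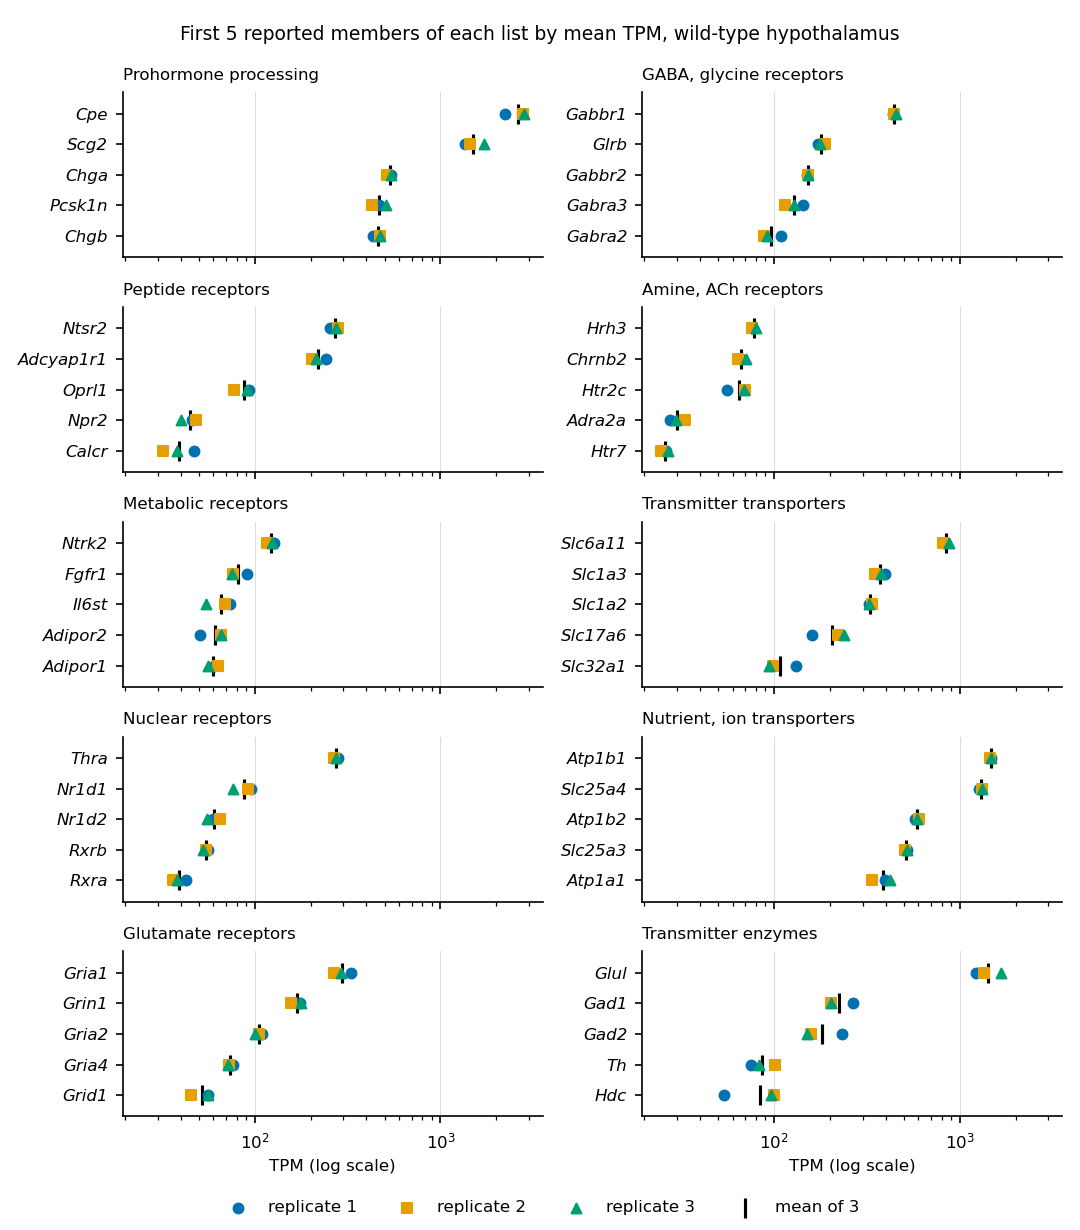
TPM (log axis, shared by all panels) of the first 5 members of 10 lists by mean TPM among the genes reported here; symbols are the 3 wild-type libraries and the bar their mean. Most points overlap, with Cpe (2604 TPM on average) at the high end and Slc17a6, Gad1, Gad2 and Hdc among those where replicate 1 stands apart.

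Cell-type markers placed neurons first, then astrocytes and oligodendrocytes. The 17 neuronal markers summed to 11233, 11577 and 12294 TPM, led by Uchl1 at 1642 ± 88.3, Snap25 at 1376 ± 99.9 and Syp at 1328 ± 76.9 TPM (SD, n = 3). The 16 astrocyte markers summed to 4554, 4673 and 4603 TPM, with the glycolytic enzyme Aldoc first at 1118 ± 12.7 TPM and Agt, the angiotensin precursor, at 493 ± 18.5 TPM. Mature oligodendrocyte markers summed to 3725, 4915 and 4272 TPM, with the myelin genes Mbp at 721 ± 86.3 and Cnp at 377 ± 37.8 TPM, and replicate 2 was highest. Sums over lists of unequal length describe these genes and give no share of cells.

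Among lists with lower sums, microglial markers were steadier than those of vessels. Microglial markers summed to 650, 634 and 670 TPM, with Ctss, a lysosomal protease, at 119 ± 9.74 TPM and the complement genes C1qa, C1qb and C1qc between 80.4 and 87.2 TPM. Endothelial markers summed to 293, 346 and 260 TPM and those of mural cells to 195, 249 and 128 TPM, both highest in replicate 2 and lowest in replicate 3. Ependymal and tanycyte markers summed to 491, 459 and 425 TPM. Dio2, the tanycyte enzyme that activates thyroid hormone, measured 7.96, 15.4 and 25.9 CPM and was highest in replicate 3.

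Markers of neighbouring regions were present at unequal levels. The sum of the thalamic list, 664, 628 and 644 TPM, was mostly Calb2 at 544 ± 18.6 TPM, a calcium-binding protein that hypothalamic neurons also make. The cortical and hippocampal list summed to 612, 500 and 554 TPM, of which Camk2a gave 297 ± 34.6 and Nrgn 202 ± 25.8 TPM, both of them found in many forebrain neurons. Slc17a7 averaged 2.16 TPM and Neurod6, a transcription factor of cortical neurons, 2.32 TPM. The striatal list summed to 246, 241 and 243 TPM, led by Adcy5 at 99.7 ± 6.93 TPM. Growth hormone, Gh, the main product of the pituitary, had 477 counts in replicate 1 and 0 in replicates 2 and 3, and Prl (prolactin) had 63, 0 and 1. Cga, the shared subunit of pituitary glycoprotein hormones, which the pars tuberalis makes as well, had 184, 225 and 502 counts.

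**Figure D3:**
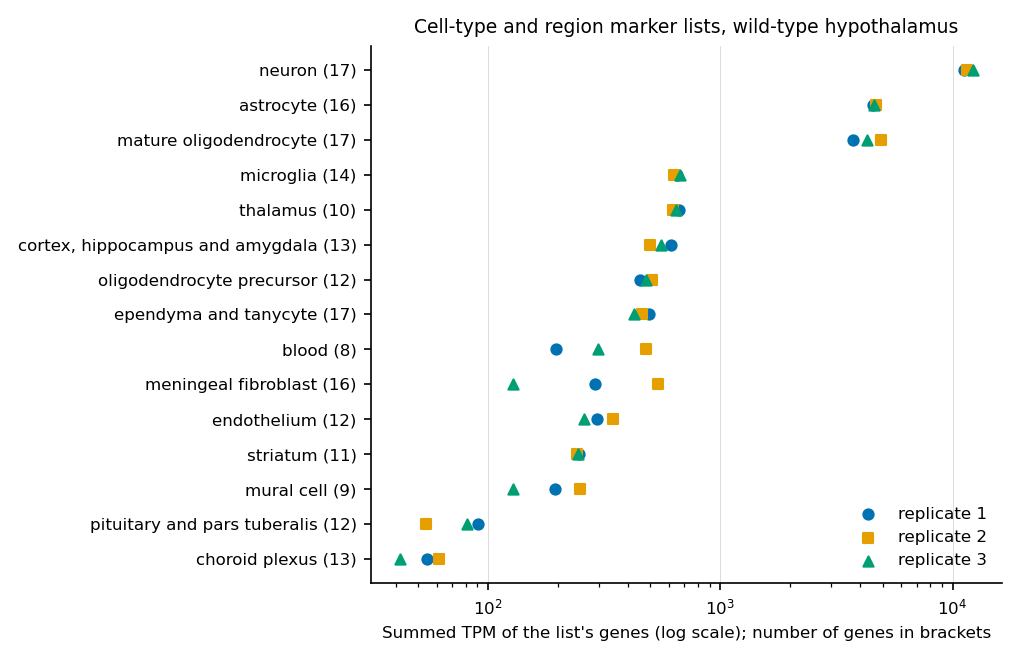
Summed TPM (log axis) of the genes on each of 15 cell-type and region marker lists in the 3 wild-type libraries, with the number of genes in brackets. Neuronal, astrocyte, microglial and striatal sums nearly coincide, while the meningeal (128 to 540), blood (195 to 477) and mural cell (128 to 249) sums are spread.

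Most genes varied little between the 3 libraries. Over the 12372 genes with a mean of at least 5 CPM, the median ratio of the highest to the lowest library was 1.14 and the median coefficient of variation 6.77%, or 6.03% once counting error was taken off. In 181 of them, 1.46%, the highest library was at least 2 times the lowest, a rule of size and not a test. The gene lists set beside this share were chosen with earlier results of these data known. Replicate 2 was the highest library for 111 of the 181 (0.897% of all genes), replicate 1 for 34 (0.275%) and replicate 3 for 36 (0.291%). Replicate 3 was the lowest for 102 (0.824%), replicate 1 for 72 (0.582%) and replicate 2 for 7 (0.0566%). Without replicate 1 the count was 99, without replicate 2 it was 106 and without replicate 3 it was 86, and 2 libraries give a smaller range than 3 by construction.

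The genes with the largest ratios fell into few kinds. They held the transcription factors Lmx1a and Foxb1, the nicotinic subunit Chrna6 and the peptide Vip, the adipose lipid-droplet gene Plin4, the calcium-binding protein gene Cpne9, and the liver genes Alb, Serpina3k and Mup3. The others were Ttr, the thyroid hormone carrier of choroid plexus and liver, and genes of the brain coverings and connective tissue, namely Slc13a4, Slc22a6, Slc6a13, Aldh1a2, Ogn, Fmod, Prg4, Myoc and Cdh1. Among these named genes the ratios ran from 7.24 for Plin4 to 21.6 for Alb.

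**Figure D4:**
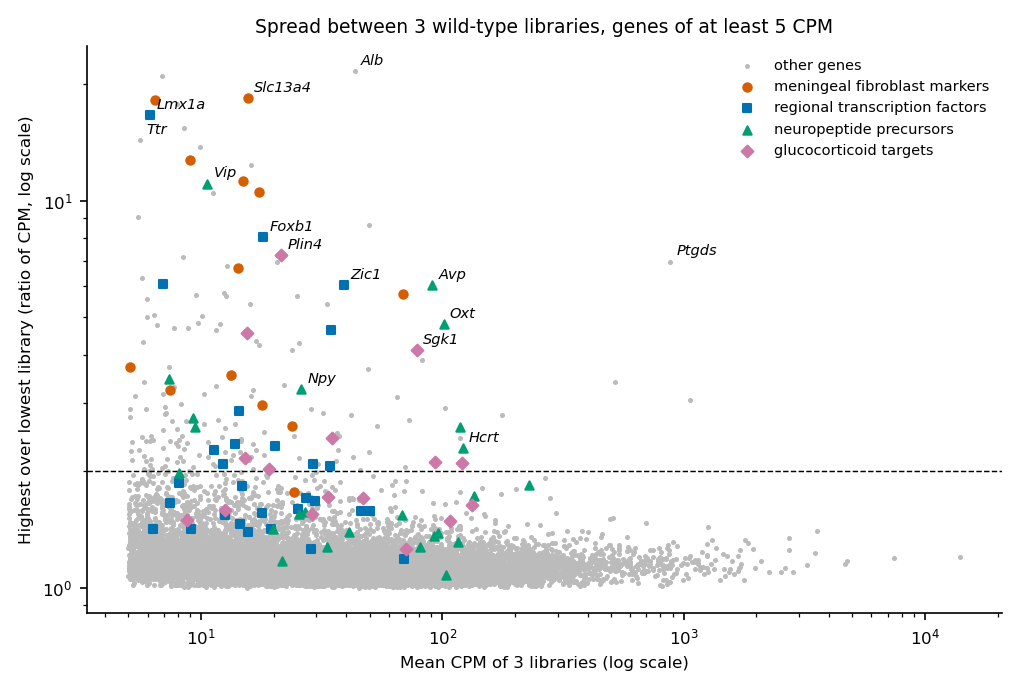
Ratio of the highest to the lowest wild-type library (log axis) against mean CPM (log axis) for the genes of at least 5 CPM, with 4 gene lists coloured and genes not reported here left out; the dashed line is the 2-fold rule. Most genes lie under the line, 181 of 12372 reach it, and Alb (21.6), Slc13a4 (18.4) and Ptgds (6.96) stand far above it.

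Transcription factors that mark hypothalamic regions or nuclei varied by replicate. Of 30 such genes with at least 5 CPM, 13 (43.3%) reached 2-fold, beside 1.46% of all genes, and the median ratio of the 30 was 1.77 beside 1.14. Their list was chosen with earlier results of these data known. Foxb1, a factor of the mammillary body, had 3.53, 28.4 and 22.3 CPM, and Lmx1a and Lmx1b, factors of posterior hypothalamic and of dopamine neurons, had 0.568, 8.40 and 9.45 CPM and 1.68, 8.93 and 10.2 CPM. Ebf3 had 10.3, 45.6 and 47.5 CPM. All 4 were lowest in replicate 1 and differed by 1.28-fold at most between replicates 2 and 3.

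Another 6 factors of at least 2-fold, most of them of anterior nuclei or the ventromedial nucleus, were highest in replicate 1. Six3 measured 51.3, 26.8 and 24.8 CPM and Six6 18.2, 10.1 and 8.71 CPM, both factors of the anterior neural plate. Vax1, of the preoptic and suprachiasmatic area, had 22.7, 12.5 and 7.96 CPM, and Zic1, of the septal and preoptic area, 71.2, 34.6 and 11.8 CPM. Fezf1 and Nr5a1, which mark the ventromedial nucleus, had 41.4, 19.9 and 26.2 CPM and 28.8, 12.4 and 19.4 CPM. The order was not shared by all tuberal factors. Bsx, a factor of the arcuate nucleus, had 8.48, 13.1 and 19.9 CPM, lowest in replicate 1 and highest in replicate 3. Onecut2 had 13.3, 14.3 and 6.30 CPM and was lowest in replicate 3. Without replicate 1, 2 of the 30 reached 2-fold, without replicate 2 there were 11 and without replicate 3 there were 8. Nkx2-1 and Isl1, which are spread over the tuberal hypothalamus, stayed under 2-fold. Nkx2-1 had 21.1, 35.4 and 32.3 CPM, lowest in replicate 1, and Isl1 had 29.7, 24.9 and 31.3 CPM, highest in replicate 3.

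Peptides differed between the libraries in both directions too. Among 24 precursors with at least 5 CPM, 9 (37.5%) reached 2-fold, beside 1.46% of all genes. The median ratio of the 24 was 1.65 beside 1.14. Avp (151, 96.8 and 25.0 CPM), Oxt (191, 73.2 and 39.7 CPM), Trh (187, 96.0 and 71.9 CPM) and Vip (20.2, 9.73 and 1.83 CPM) were highest in replicate 1 and lowest in replicate 3. Vip marks the suprachiasmatic nucleus, and Avp, Oxt and Trh mark the paraventricular and neighbouring nuclei. Hcrt (67.1, 143 and 154 CPM), Npy (14.1, 18.2 and 45.8 CPM), Agrp (3.76, 5.37 and 13.0 CPM) and Npvf (5.54, 7.12 and 15.2 CPM) were lowest in replicate 1 and highest in replicate 3. Cck had 4.65, 12.1 and 11.5 CPM. Without replicate 1 the count of peptides was 5, without replicate 2 it stayed at 9 and without replicate 3 it was 4. The regional factors given above differed between the same libraries, and their part in the peptide values was not tested.

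Single members of other role lists shared these patterns. The metabotropic receptor Grm2 had 9.12, 49.4 and 40.9 CPM, and Chrna6, a nicotinic subunit of dopamine neurons, 0.568, 11.9 and 8.25 CPM. Nr4a2, a nuclear receptor of dopamine neurons that is also an immediate-early gene, had 5.96, 21.0 and 25.2 CPM. Replicate 1 was lowest for all 3, as for Lmx1a and Foxb1. Slc6a3, the dopamine transporter, had 6.35, 44.0 and 11.6 CPM and was highest in replicate 2, while Th stayed within 1.31-fold.

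Genes of the meninges varied most among the cell-type lists with more than 3 members of at least 5 CPM. Of 13 meningeal fibroblast markers at that level, 12 (92.3%) reached 2-fold, beside 1.46% of all genes. The median ratio of the 13 was 5.72 beside 1.14. Igf2, an insulin-like growth factor made in brain coverings, had 70.7, 115 and 20.1 CPM. Slc13a4, a sulfate transporter, had 13.3, 31.9 and 1.73 CPM and the matrix protein gene Ogn 14.3, 28.0 and 2.49 CPM. All 13, 2-fold or not, were highest in replicate 2 (27.8% of all genes at any size) and lowest in replicate 3 (27%). This order was common among 2-fold genes, with 73 of the 181 showing it. Without replicate 3, 3 of them reached 2-fold, without replicate 2 there were 8 and without replicate 1 there were 12. Ptgds, given above, and the GABA transporter Slc6a13 at 9.27, 22.2 and 2.12 CPM had the same library order.

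Haemoglobin and liver genes shared part of this order. Hbb-bs, an adult beta globin, had 21.3, 53.5 and 35.2 CPM. All 3 blood genes with at least 5 CPM were highest in replicate 2 (27.8% of all genes at any size) and lowest in replicate 1 (30.1%). Alb, the serum albumin of liver, had 54.3, 72.1 and 3.34 CPM. All 7 liver and plasma protein genes with at least 5 CPM were highest in replicate 2 (27.8%) and lowest in replicate 3 (27%). That list was added after their values were seen. All 7 also reached 2-fold, and 73 of the 181 genes that did so had this order. Ttr, on the choroid plexus list, had 5.96, 10.2 and 0.708 CPM, but Kl and Clic6 of the same list had 12.8 to 13.4 and 20.9 to 31.4 CPM and did not reach 2-fold. Gfap, the astrocyte intermediate filament, had 181, 257 and 91.6 CPM, the order of the meningeal genes, and 25.1% of its exon bases are shared with another gene. The other astrocyte markers stayed under 2-fold.

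Known targets of glucocorticoids ran in 1 direction across the libraries. Of 16 such genes with at least 5 CPM, 8 (50%) reached 2-fold, beside 1.46% of all genes. The median ratio of the 16 was 1.87 beside 1.14. Sgk1, a kinase that the glucocorticoid receptor induces, had 31.5, 73.7 and 130 CPM. Plin4 had 6.30, 12.4 and 45.6 CPM, Cdkn1a, a cell-cycle inhibitor, 6.10, 12.5 and 27.8 CPM, and Tsc22d3, which encodes the glucocorticoid-induced leucine zipper, 83.8, 102 and 176 CPM. Replicate 1 was lowest for all 16, beside 30.1% of all genes, and replicate 3 was highest for 15, beside 45.8%. This list was chosen with earlier results of these data known, so these shares are a description only. The exception was Zbtb16, with 19.7, 47.9 and 36.9 CPM. Fkbp5, a chaperone of the receptor, had 36.7, 41.8 and 62.8 CPM and did not reach 2-fold. Without replicate 1, 2 of the 16 reached 2-fold, without replicate 2 there were 7 and without replicate 3 there were 3. The sources used here give neither the hour of dissection nor the handling of the animals.

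Promoter windows are shown for 3 genes that differed between the libraries, since nuclear receptors read short DNA words there. The windows are the 250 bases before a start in RefSeq, build GRCm38.p6, 5′ to 3′ on the gene's strand, and capitals mark AGAACA or AGGTCA on either strand, or an inverted repeat. AGAACA is the half-site of steroid receptors such as the glucocorticoid receptor, and AGGTCA that of thyroid, retinoid and estrogen receptors. The inverted repeat is AGAACA, any 3 bases, then TGTTC, so each match overlaps an AGAACA match. The windows of Sgk1 (chr10:21993640-21993889, plus strand), Oxt (chr2:130575919-130576168, plus strand) and Avp (chr2:130582589-130582838, minus strand) read as follows.
Sgk1: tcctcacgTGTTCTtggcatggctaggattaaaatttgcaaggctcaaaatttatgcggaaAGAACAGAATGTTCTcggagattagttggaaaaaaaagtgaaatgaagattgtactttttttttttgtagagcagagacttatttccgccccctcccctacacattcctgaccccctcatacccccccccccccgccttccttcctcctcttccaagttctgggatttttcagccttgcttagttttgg
Oxt: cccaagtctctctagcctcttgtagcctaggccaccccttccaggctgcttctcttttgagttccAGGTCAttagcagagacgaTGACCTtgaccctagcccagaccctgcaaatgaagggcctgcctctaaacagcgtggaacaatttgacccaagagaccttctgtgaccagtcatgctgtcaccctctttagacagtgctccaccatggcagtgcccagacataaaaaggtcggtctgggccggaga
Avp: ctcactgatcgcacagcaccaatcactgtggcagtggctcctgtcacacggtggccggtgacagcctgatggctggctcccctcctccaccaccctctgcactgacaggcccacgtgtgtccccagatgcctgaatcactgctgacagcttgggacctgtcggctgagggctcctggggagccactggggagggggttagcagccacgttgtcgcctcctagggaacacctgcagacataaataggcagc

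The Sgk1 window is 1 of 6 that RefSeq starts give for the gene. It holds the inverted repeat, whose first base lies 189 bases before the start, and 1 more AGAACA at 242 bases. The inverted repeat is in 10 of 32851 windows of the same length in the table (0.0304%), and among the 25 windows of 15 of the 16 glucocorticoid targets it was found in this one alone. AGAACA is in 5 of those 25 windows (20%) beside 16.1% of all windows. The window of Oxt holds AGGTCA at 185 and 166 bases before the start, a word found in 14% of all windows, and that of Avp holds none of the words searched. These are matches of letters, not measured binding.

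**Figure D5:**
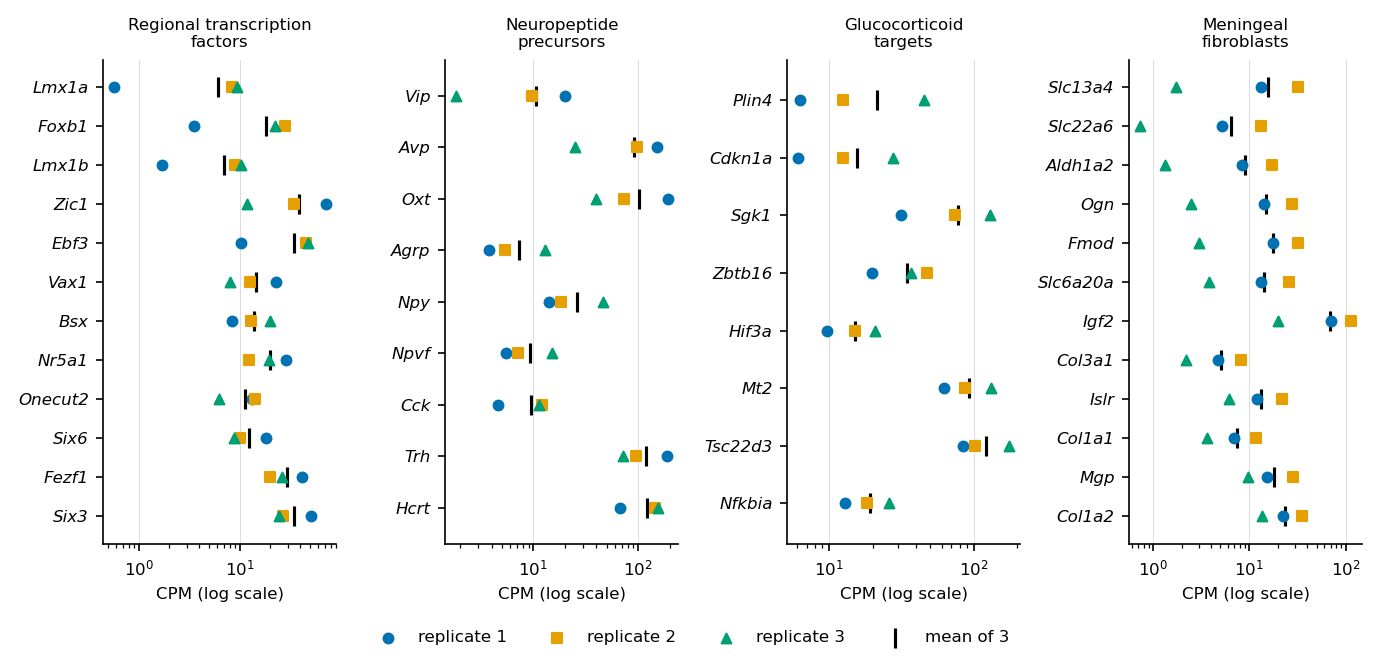
CPM (log axis) in each wild-type library for the members reported here of at least 5 CPM that differ 2-fold or more, in 4 lists, ordered by the ratio of highest to lowest; the bar is the mean. Replicate 1 (circles) is far below the others for Foxb1, Lmx1a and Lmx1b, replicate 3 (triangles) is highest for 7 of 8 glucocorticoid targets, and replicates 2 and 3 mark the high and low end for all 12 meningeal genes.

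Other state lists had smaller shares of 2-fold members. Immediate-early genes reached 2-fold in 4 of 20 members (20%), beside 1.46% of all genes. These were Nr4a2, Fosb, Nr4a3 and Klf4, while Fos had 26.3, 30.1 and 19.7 CPM and Egr1 53.5, 59.3 and 57.2 CPM. Of the 20, 14 were highest in replicate 2 (27.8% of all genes at any size) and 13 lowest in replicate 3 (27%). None of 17 clock genes did, and Dbp, an output gene of the clock, had 43.0, 37.2 and 39.9 CPM. None of 14 chaperone genes and none of 80 cytosolic ribosomal protein genes did. Interferon-responsive genes reached it in 1 of 7, Ifit1, and all 7 were highest in replicate 2 (27.8% of all genes at any size).

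Ribosomal and other structural RNAs made up a further set, listed after their values were seen. Bc1, a neuronal noncoding RNA, had 180, 65.8 and 61.8 CPM, Rn7sk, the RNA that holds back transcription elongation, 19.0, 6.25 and 3.93 CPM, and Rn18s-rs5 1834, 741 and 601 CPM. All 5 such genes with at least 5 CPM were highest in replicate 1 (26.4% of all genes at any size) and lowest in replicate 3 (27%), including mt-Rnr1 and mt-Rnr2 at under 2-fold. Exons shared with other genes cover 73.4% of Rn18s-rs5. The way RNA was selected is not stated in the labels, and its part in these values was not tested. At the other end, Hnrnpd, an RNA-binding protein gene, had 180.5, 180.7 and 180.9 CPM, a coefficient of variation of 0.105%. The 10 steadiest genes of at least 100 CPM, which include Tbc1d24, Atn1, Ank, Shisa9 and Ddx5, had coefficients of 0.105 to 0.520%, no larger than counting error.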

How the data were processed

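Counts are whole read pairs assigned to each gene in all 6 libraries, not normalized, as deposited by the authors. Per the labels' protocols, total RNA was extracted with RNeasy and libraries were made with Illumina TruSeq; neither poly(A) selection nor strand is stated there. Alignment was by STAR 2.7.10a according to the submitters' processing notes. Per the file headers, featureCounts 2.0.0 (2.0.3 in the submitters' processing notes) counted pairs over RefSeq exons of mm39 without strand and leaving out pairs with several locations or genes, so near-identical copies and overlapping genes are uncertain. The deposited column of summed exon length served for TPM. All rows name a gene, and 0 columns of values went unused.

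From the 3 wild-type columns, CPM was computed with TMM factors of edgeR 4.0.16 in R 4.3.3 (1.002, 1.028 and 0.971), and TPM from count over length. No test was made, since there is 1 group. The rule of size was a mean of at least 5 CPM and a highest library at least 2 times the lowest. The members of 32 gene lists, and the rules, were chosen with earlier results of these data known, and 4 lists were added after these values were seen. Genes were named by rank (the 20 highest by TPM, the 10 by CPM, the first 8 of a role list, the first 4 of a cell-type list), by ratio (the 20 highest, up to 4 in a list), as the 10 steadiest, or for 0 counts. Others were named after their values were seen, among them further 2-fold members and receptors of the leading peptides, metabolic hormones and steroids. The length of a gene's exons that other genes cover was computed from the table's own coordinates. Alternatives were RLE (DESeq2 1.42.0), totals alone, TMM over 6 libraries, other thresholds, each library left out, order by CPM, and TPM without mitochondrial genes. Some genes that a rule would name are not reported here, though they remain in counts and sums.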

Additional observations from a re-analysis of the deposited data

How the results depend on the processing

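The count of 181 genes with a 2-fold range was 592 with a minimum of 1 CPM, 50 with 20 CPM, 6197 with no filter and 630 at 1.5-fold. It was 180 to 201 under the other scalings, and 157 without members of the meningeal, choroid, blood, pituitary and liver lists, an alternative chosen after seeing the data. With 1 library left out it ran from 86 to 106, and the median coefficient of variation beyond counting from 3.88% (without replicate 3) to 5.78%, beside 6.03%. All 56 genes named for a 2-fold range kept it under 3 other scalings, and 10 kept it with any 1 library left out. Median TPM was 17.2 and became 19.4 over genes outside the mitochondrial genome. The 10 most counted genes took 4.97% of counts, and 2.60% outside it. Genes detected rose from 16340 to 26666 when 1 count per library sufficed. Of 96 first members, 77 kept their place among the first 8 by CPM, as did 8 of 12 leading members, and 94 did so by unshared exon length, also chosen after seeing the data. No paired analysis was possible because 1 group was described and no result came from a test between groups. At 2000 exon bases 1 count was worth 0.0369 to 0.0431 TPM, so levels below about that size were not detectable.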

Other observations

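A few further abundant genes, chosen after their values were seen, are given as values. Nnat, an imprinted gene of developing and endocrine tissue, had 2033, 2012 and 1880 TPM, and Nap1l5, also imprinted, 2113, 2012 and 2110 TPM. Gnas, which encodes the stimulatory G protein subunit, had 2262 ± 107 CPM and 788 ± 13.0 TPM (SD, n = 3). Gprasp1, a regulator of receptor sorting, had 1038 ± 27.0 TPM. None of these differed 2-fold between libraries.

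Of the 3 pairs of libraries, replicates 1 and 3 had the most genes with a 2-fold difference at 5 CPM or more, 117, of which 63 were higher in replicate 1. Replicates 2 and 3 had 97, of which 85 were higher in replicate 2, and replicates 1 and 2 had 82, of which 66 were higher in replicate 2. Of the 181 genes with a 2-fold range, 75 stand on a list used here and 15 have symbols of clones, pseudogenes or bare identifiers. Among genes of at least 100 TPM in each library, 11 have under 200 exon bases, where a level per base rests on few positions.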
